A study of Mus musculus with 7 samples.

Results

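Genomic imprinting leaves 1 parental copy of a gene active and the other silent, commonly through DNA methylation laid down in the egg or the sperm. The genes described here are 10 imprinted genes known for their part in fetal and placental growth, H19, Igf2, Mest, Peg3, Peg10, Cdkn1c, Plagl1, Slc38a4, Nnat and Phlda2, which lie on chromosomes 2, 6, 7, 10 and 15. They were taken by name, as every probe set to which the platform annotation gives one of these symbols, and 18 of the 45101 probe sets of the array qualified. Of these, 13 were bright enough to be tested, at least 1 for each of the 10 genes, and 5 were not.

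The libraries came from D3 mouse embryonic stem cells, an established line, and were hybridised one to an array (Affymetrix Mouse 430 2.0). There were 2 wild type libraries and 5 libraries of D3 cells in which the gene Calr had been knocked out; its product, calreticulin, binds calcium and helps glycoproteins fold inside the endoplasmic reticulum (ER). According to the labels each library pooled replicate cultures and was a biological replicate of its own. They do not say whether the knockout libraries came from 1 clone or several, so a p-value here weighs only how these 7 libraries vary. Values are signals on a linear scale, and a difference is the knockout mean minus the wild type mean of log2(signal + 20.2), a scale on which changes of weak signals come out too small.

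In these genes the paternal or the maternal copy is the active one. Of the members, 7 are normally expressed from the paternal copy (Igf2, Mest, Peg3, Peg10, Plagl1, Slc38a4 and Nnat), and many paternally expressed genes favour growth of the fetus. The other 3 (H19, Cdkn1c and Phlda2) are expressed from the maternal copy and tend to restrain growth. In cultured embryonic stem cells imprints can be lost or gained, and expression of imprinted genes is known to differ between cultures of 1 line. The arrays read total RNA and do not separate the parental copies.

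H19 is a long non-coding RNA whose first exon holds a microRNA gene, Mir675, and the annotation of its only probe set names both. The values below called H19 are therefore those of a probe set annotated jointly to H19 and Mir675. The mature microRNA has no value of its own here, and its 2 arms are shown because they are cut from the transcript that varied most among the members. They are RefSeq sequences (GRCm38.p6), 5′ to 3′, with the seed, bases 2 to 8, in capitals. The arms share no seed.
mmu-miR-675-5p: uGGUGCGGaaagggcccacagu
mmu-miR-675-3p: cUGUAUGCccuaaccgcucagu

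Promoter windows from RefSeq (GRCm38.p6), 300 bases from 250 before to 50 after an annotated start, were held for 7 members, 14 windows in all. ZFP57, a zinc finger protein that keeps imprints through early development, binds the hexamer TGCCGC when it is methylated. The hexamer was searched on both strands, and since it holds a CG, each match also counts as a CpG. It was in 5 of the 14 member windows and in 11.6% of the 32851 windows of the table, and 2 of the 5 are Mest windows that overlap almost wholly. The 250 bases before the start are shown for Plagl1 and Mest, which were lower in all 5 knockout libraries, and for Slc38a4 and Phlda2, which were higher in knockout libraries 2 and 3. Each is given 5′ to 3′ on the strand of its gene, with matches in capitals, where GCGGCA is the hexamer on the opposite strand.
Plagl1, chr10:13090582-13090831, plus strand: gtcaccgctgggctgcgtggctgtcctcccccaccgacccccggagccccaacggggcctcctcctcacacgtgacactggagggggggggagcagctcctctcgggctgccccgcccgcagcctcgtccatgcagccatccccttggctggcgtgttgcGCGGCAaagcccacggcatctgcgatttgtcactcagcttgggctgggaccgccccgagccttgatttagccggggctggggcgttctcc
Mest, chr6:30737800-30738049, plus strand: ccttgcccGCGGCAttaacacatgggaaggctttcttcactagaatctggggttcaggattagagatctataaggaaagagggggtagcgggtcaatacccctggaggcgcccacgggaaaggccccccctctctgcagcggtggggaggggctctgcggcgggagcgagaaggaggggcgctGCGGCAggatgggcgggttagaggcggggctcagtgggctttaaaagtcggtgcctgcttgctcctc
Slc38a4, chr15:97055957-97056206, minus strand: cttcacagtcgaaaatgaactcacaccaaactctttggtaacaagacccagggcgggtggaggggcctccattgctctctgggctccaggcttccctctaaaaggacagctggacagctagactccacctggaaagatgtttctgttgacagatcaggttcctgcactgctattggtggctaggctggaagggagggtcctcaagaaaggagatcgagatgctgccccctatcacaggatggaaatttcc
Phlda2, chr7:143502525-143502774, minus strand: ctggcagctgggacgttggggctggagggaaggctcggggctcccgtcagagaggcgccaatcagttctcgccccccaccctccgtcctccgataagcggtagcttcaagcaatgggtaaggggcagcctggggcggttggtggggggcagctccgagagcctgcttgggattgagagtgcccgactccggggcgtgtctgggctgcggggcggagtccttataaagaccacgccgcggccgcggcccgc
The Plagl1 stretch holds 1 match and the Mest stretch 2, and the Slc38a4 and Phlda2 stretches hold none. For Mest the window with matches is shown, and the window of its other start (chr6:30733256-30733555) holds none. The window of Peg3, whose brightest probe set was also lower in all 5 knockout libraries, holds no match and is not shown. The remaining 2 of the 5 windows with a match are 1 of Nnat and 1 of the 4 of Igf2 (chr7:142661222-142661521). Igf2 was, like Slc38a4 and Phlda2, highest in knockout libraries 2 and 3. CpG counts over the 300-base windows were 26 for Plagl1, 26 for Phlda2, 17 for Mest and 5 for Slc38a4, against a median of 7 over the table. A match describes these letters and is not evidence of binding.

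The knockout was checked first. The brightest Calr probe set had signals of 10840 and 12460 in wild type and of 577 to 1064 in knockout libraries (difference -3.68, SE 0.30, limma adjusted p = 0.00595). All 10 stem cell markers examined, among them Dppa5a, Tdgf1, Sox2 and Zfp42, were above the signal filter. The pluripotency factor genes Pou5f1 and Nanog, chosen after their values were seen, had their 2 lowest signals in knockout libraries 2 and 3. Pou5f1 stood there at 4891 and 4687 (8770 to 11726 in the other 5) and Nanog at 4841 and 4601 (5456 to 9228). Over all 10 markers, 4 had their 2 lowest signals in these libraries and 1, Tdgf1, its 2 highest (14287 and 15929). Knockout libraries 2 and 3 stood apart from the rest, correlating with each other at 0.985 across tested probe sets and with the other 5 at 0.843 to 0.902, while those 5 correlated with one another at 0.920 to 0.972. A spiked-in bacterial RNA (Lys) gave a 3′ signal of 13605 in library 2 and 10441 in library 3, where the remaining 5 ranged from 4063 to 5314. Another spiked-in RNA (Dap) differed little, at 14900 and 16256 against 13234 to 15985. The log2 ratio of 3′ to 5′ signal for Actb was 0.79 and 0.89 in knockout libraries 2 and 3, against 1.46 to 2.08 in the others. In bulk samples such as these, fewer cells of a type and less RNA per cell cannot be told apart.

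No member passed the test between the groups. With limma's test over 27022 probe sets and Benjamini-Hochberg adjustment, 0 of 13 member probe sets had an adjusted p under 0.05, and the smallest was 0.575. Over all probe sets 8 passed, which is 0.0296%. At an unadjusted p under 0.05 there were 4 member probe sets, those of Mest, Nnat, Plagl1 and 1 of Peg3, all with lower knockout means, and 8.42% of all probe sets. The group values did not overlap at 3 member probe sets, all lower in the knockout libraries, against 5.85% of all probe sets in that direction. At 0 member probe sets were all knockout libraries higher, against 7.8% overall. Members with several probe sets count more than once here, and with so few probe sets these shares are a description. The median difference over the 13 was -0.22, beside 0.07 over all tested probe sets.

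**Figure D1:**
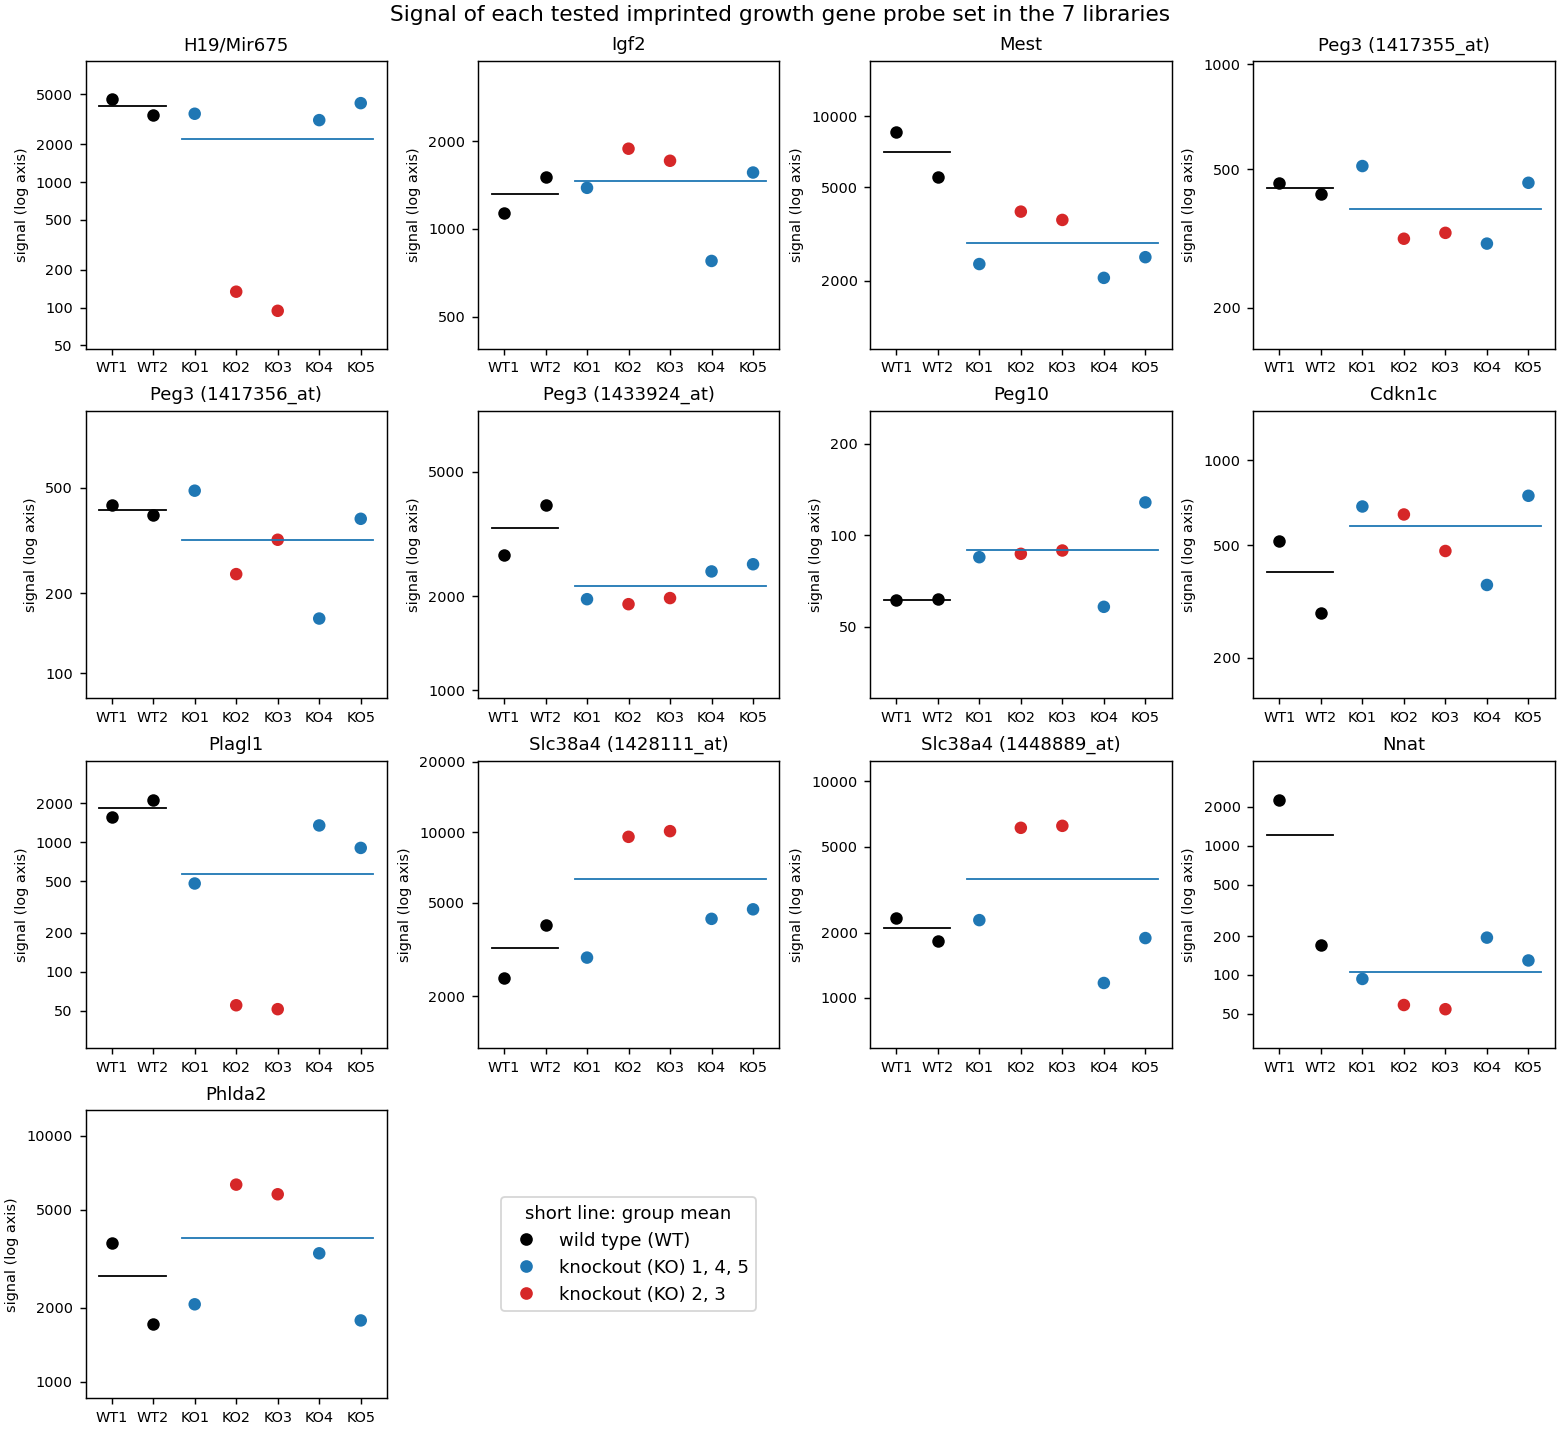
Signal (log axis) of the 13 tested probe sets in wild type libraries 1 and 2 (WT, black) and knockout libraries 1 to 5 (KO, blue, with libraries 2 and 3 in red); short lines are group means. H19 (133.8 and 94.2) and Plagl1 (55.1 and 51.4) have their lowest signals in knockout libraries 2 and 3, Mest is lower in all 5 knockout libraries, and Nnat is high in wild type library 1 only.

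Among the maternally expressed genes, H19 was near the wild type level in 3 knockout libraries and far below it in the other 2. Its signals were 4610 and 3412 in wild type libraries 1 and 2. They were 3507, 133.8, 94.2, 3120 and 4261 in knockout libraries 1 to 5. These 2 low libraries, 2 and 3, held 3.34% and 2.35% of the wild type mean, and the array medians there were 114.4 and 124.9. Signals so near the median cannot be told from background here, so these percentages describe the deposited values only. Knockout library 5 lay between the wild type libraries, as did library 1, and library 4 was below both. The group means were 4011 ± 847 (SD, n = 2) in wild type and 2223 ± 1969 (SD, n = 5) in knockout libraries, the latter a value near none of its 5 libraries. The difference was -2.05 with a standard error of 1.44 (limma adjusted p = 0.616), and -0.14 (SE 0.24, adjusted p = 0.921) without knockout libraries 2 and 3. On the log2 scale the standard deviation over the 5 knockout libraries was 2.62, where the median of all tested probe sets was 0.37. This spread too rests on the 2 low signals.

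Phlda2, which encodes a small pleckstrin homology domain protein that restrains growth of the placenta, went the other way in the same libraries. Wild type libraries 1 and 2 had signals of 3651 and 1722, and knockout libraries 2 and 3 were well above them, at 6321 and 5777. Knockout libraries 1, 4 and 5, at 2066, 3327 and 1777, lay within the wild type range. Its difference was 0.43 (SE 0.54, limma adjusted p = 0.767), and it turned to -0.12 without knockout libraries 2 and 3 and to -0.11 without wild type library 2.

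Cdkn1c encodes p57, an inhibitor of cyclin-dependent kinases. Its signals were 519 and 287 in wild type and 687, 644, 478, 362 and 750 in knockout libraries 1 to 5. Knockout libraries 1, 2 and 5 were above both wild type libraries and libraries 3 and 4 were between them, so the groups overlapped (difference 0.53, SE 0.36, limma adjusted p = 0.606). The difference was 0.93 without wild type library 1 and 0.12 without wild type library 2. Unlike H19 and Phlda2, Cdkn1c did not set knockout libraries 2 and 3 apart.

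**Figure D2:**
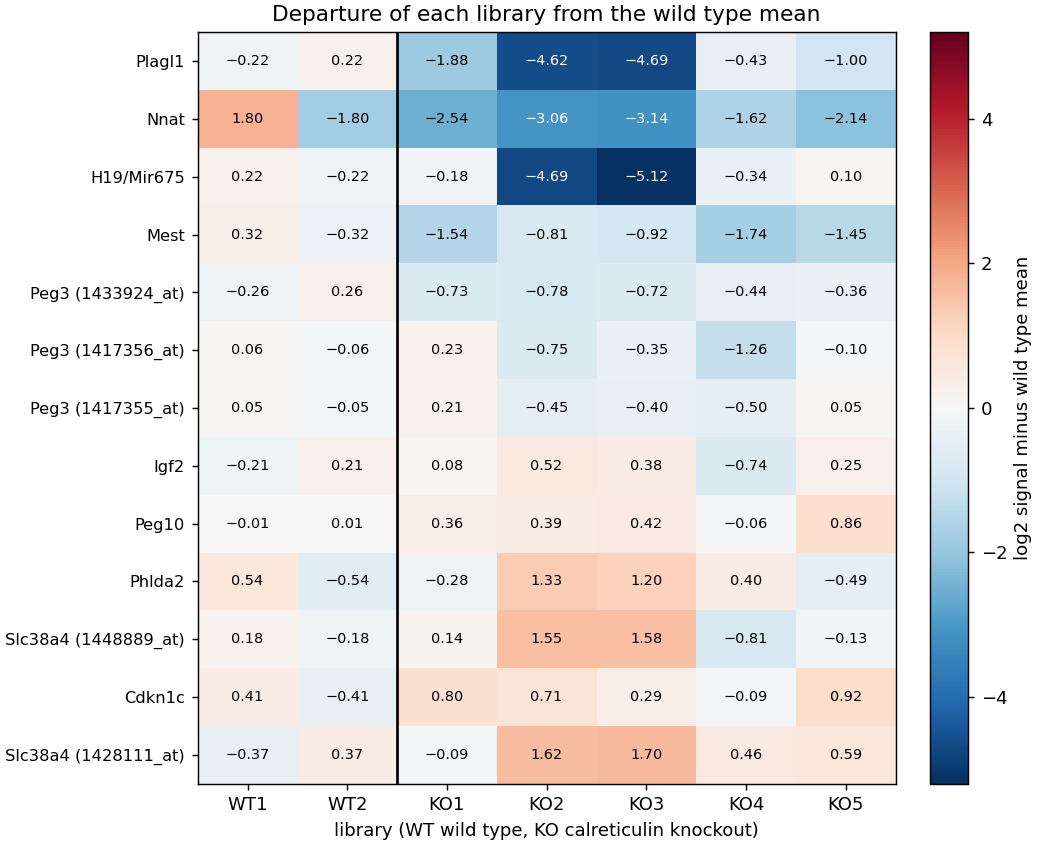
Log2 signal minus the wild type mean for the 13 tested probe sets (rows, ordered by the group difference) in each library (columns; WT wild type, KO knockout), blue below and red above the wild type mean. Knockout libraries 2 and 3 have the extreme values for H19 (-4.69 and -5.12) and Plagl1 (-4.62 and -4.69), and Slc38a4 and Phlda2 are highest there.

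Among the paternally expressed genes, Plagl1 and Mest were lower in every knockout library, by different patterns. Plagl1 encodes a zinc finger transcription factor that can halt the cell cycle and is known to act on other imprinted genes. Its tested probe set had signals of 1564 and 2131 in wild type libraries. In knockout libraries 1 to 5 the signals were 480, 55.1, 51.4, 1347 and 904. Libraries 2 and 3 held 2.98% and 2.78% of the wild type mean, and both signals were under the median of their arrays, where background cannot be told apart. The other 3 knockout libraries, at 26.0% (library 1), 72.9% (library 4) and 48.9% (library 5), were also below both wild type libraries. The group means were 1847 ± 401 (SD, n = 2) and 568 ± 561 (SD, n = 5), with a difference of -2.52 (SE 1.12, limma adjusted p = 0.575). Without knockout libraries 2 and 3 the difference was -1.10 (SE 0.41, adjusted p = 0.820). The spread over knockout libraries was an SD of 2.01. This probe set is of the x_at type, whose probes can bind other transcripts, and the other 2 of Plagl1 were under the signal filter at 11.2 to 96.2 and 5.5 to 21.5, so no second probe set could be compared.

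Mest, which encodes a protein of the alpha/beta hydrolase family and is strongly expressed in embryonic mesoderm, had no knockout library within the wild type range. Its signals were 8597 and 5526 in wild type libraries. They were 2351, 3931, 3624, 2053 and 2515 in knockout libraries 1 to 5, so that the brightest knockout library lay below the dimmer wild type library. The knockout mean of 2895 ± 829 (SD, n = 5) was 41.0% of the wild type mean of 7061 ± 2172 (SD, n = 2). The difference of -1.29 (SE 0.33) had an unadjusted p of 0.00313 and an adjusted p of 0.575 in limma's test. Here knockout libraries 2 and 3 were the 2 nearest to wild type, and without them the difference was larger, -1.58 (SE 0.25, adjusted p = 0.231). A batch term for these 2 libraries, both knockout, left the difference at -1.58, which the other 5 libraries set alone. Its SE was then 0.22 and its limma adjusted p 0.0738. That p counts the closeness of libraries 2 and 3 to each other in its variance, so it is no further evidence on Mest. With all 5 knockout libraries, the difference was -0.97 without wild type library 1 and -1.61 without wild type library 2. Mest is read by 1 probe set only.

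Peg3, a gene for a large zinc finger protein, has 5 probe sets that did not give the same picture. The brightest had signals of 2707 and 3908 in wild type libraries and of 1955, 1884, 1971, 2398 and 2528 in knockout libraries 1 to 5. The groups did not overlap at this probe set, and the knockout values were close together (2147 ± 294, SD, n = 5). Its difference was -0.60 (SE 0.27, unadjusted p = 0.0482, limma adjusted p = 0.575), -0.87 without wild type library 1 and -0.34 without wild type library 2. At the other 2 tested probe sets the differences were smaller, -0.22 (SE 0.29) and -0.45 (SE 0.39), and knockout library 1 was above both wild type libraries at each. The remaining 2 were dim, at 1.2 to 28.8 over all libraries.

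Nnat encodes neuronatin, a small membrane protein of the ER that is best known from the developing brain. Its signal was 2265 in wild type library 1 and 169 in wild type library 2. Knockout libraries 1 to 5 had 93.2, 58.6, 54.4, 194.4 and 129.5. The high value is thus that of 1 wild type library, and knockout library 4 lay above the other wild type library. The difference of -2.50 (SE 0.80, unadjusted p = 0.0116, limma adjusted p = 0.575) was -0.70 without wild type library 1 and -4.29 without wild type library 2. Over all 7 libraries the log2 range was 4.94 for Nnat, 5.34 for H19 and 4.91 for Plagl1, the widest of the 13 probe sets.

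Slc38a4 encodes an amino acid transporter of the plasma membrane that feeds the placenta and fetus. Both of its probe sets were highest in knockout libraries 2 and 3. At the first, their signals were 9579 and 10130, those of knockout libraries 1, 4 and 5 were 2921, 4276 and 4696, and the wild type pair had 2397 and 4021. At the second, knockout libraries 2 and 3 had 6106 and 6236, the other knockout libraries had 2287, 1172 and 1890, and the wild type pair had 2351 and 1836. For knockout libraries 2 and 3 the signals were therefore 298% and 316% of the wild type mean at the first probe set and 292% and 298% at the second. The differences over all libraries were 0.86 (SE 0.49, limma adjusted p = 0.579) and 0.46 (SE 0.62, adjusted p = 0.782). Without knockout libraries 2 and 3 they were 0.32 and -0.27, so the probe sets parted in sign. They were 0.49 and 0.64 without wild type library 1, and 1.23 and 0.29 without wild type library 2.

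Igf2, the fetal insulin-like growth factor that lies next to H19 and shares its enhancers, was highest in the 2 libraries where H19 was lowest, but by a small margin. Its tested probe set had signals of 1133 and 1513 in wild type and of 1385, 1887, 1716, 777 and 1563 in knockout libraries 1 to 5. The highest of the 7 were again knockout libraries 2 and 3, but by less than 1 on the log2 scale above the wild type mean (0.52 and 0.38). The difference was 0.10 (SE 0.37, limma adjusted p = 0.926) and -0.02 after centring each array on its median, so it has no settled direction. The second Igf2 probe set was under the filter, at 17.1 and 29.0 in wild type and 25.7 to 72.7 in knockout libraries, with the highest 2 signals again in knockout libraries 2 and 3.

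Peg10, a gene derived from a retrotransposon and needed for the placenta, was dim throughout. It had signals of 61.0 and 61.8 in wild type libraries and 84.6, 86.8, 89.0, 58.1 and 128.1 in knockout libraries 1 to 5. In 4 of 5 knockout libraries the signal was above both wild type libraries, and in library 4 it was below both (difference 0.39, SE 0.29, limma adjusted p = 0.628).

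**Figure D3:**
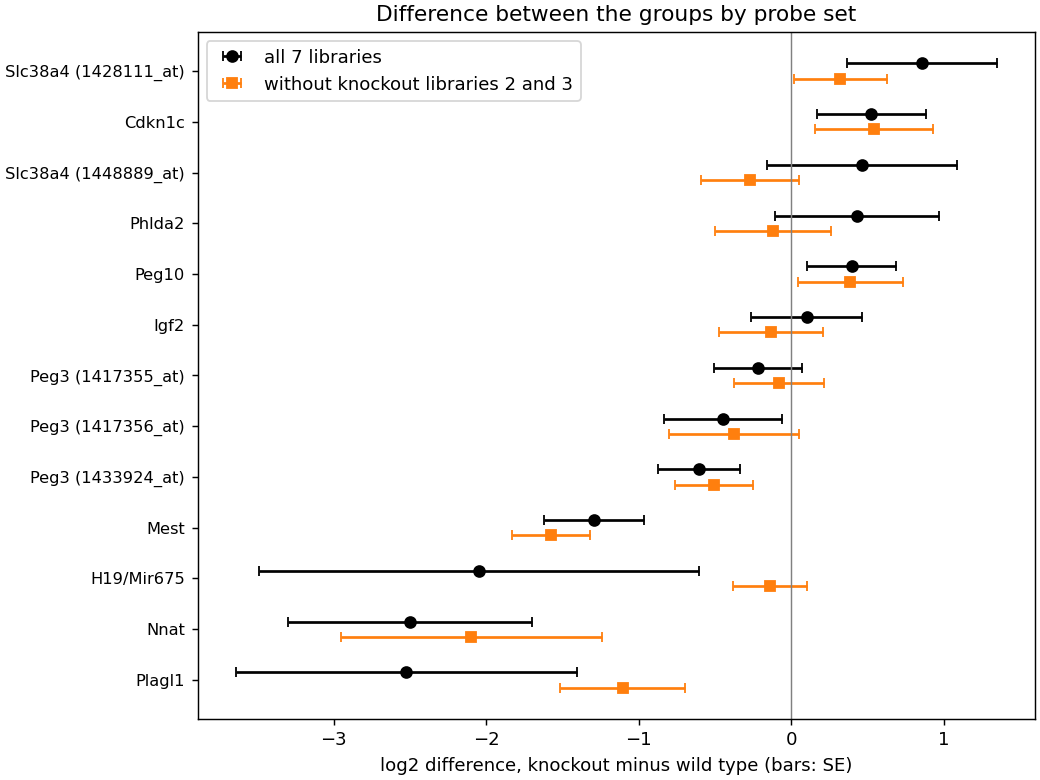
Difference between knockout and wild type means (log2, x axis; bars are standard errors) for the 13 tested probe sets with all 7 libraries (black) and without knockout libraries 2 and 3 (orange). H19 moves from -2.05 to -0.14 and Plagl1 from -2.52 to -1.10 when these libraries are left out, while Mest goes from -1.29 to -1.58.

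Knockout libraries 2 and 3 held the 2 highest of the 7 signals at 4 of the 13 probe sets (both of Slc38a4, Phlda2 and Igf2) and the 2 lowest at 3 (H19, Plagl1 and Nnat). Over all tested probe sets these shares were 26.9% and 20.9%, so being extreme in these libraries is not particular to the members. Of the 10 stem cell markers, 4 had their 2 lowest signals in these libraries and 1 its 2 highest.

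Markers of other cell types moved with the same libraries in part. Of 14 fibroblast markers on the array (15 listed), which feeder cells would bring, 7 had their 2 highest signals in knockout libraries 2 and 3 and 0 their 2 lowest. Col1a2 stood at 1519 and 1443 there and at 159 to 375 in the other 5 libraries, Col3a1 at 512 and 443 (47.3 to 287 in the others), and Postn at 389 and 392 (11.7 to 91.9). Dcn, an imprinted gene that fibroblasts express and that is not on this list, stood at 552 and 555 (13.4 to 55.6 in the others). Without these libraries it fell under the signal filter. The levels of these 4 genes had been seen before they were picked for naming. The brightest listed markers, Acta2 and Tagln, were not raised above wild type there. Acta2 stood at 2474 and 2344, below wild type (3802 and 3068) and above the other knockout libraries (895 to 1892.5). Tagln, at 2033 and 1588, lay between its wild type signals of 3295 and 1123. The summed fibroblast signal, to which Acta2 and Tagln give the most, was 8998 (knockout library 2), 8364 (3), 3143 (1), 6632 (4) and 2980 (5), where wild type libraries had 6178 and 9464, and Lum, Twist1 and Mgp were under the filter. Primitive and visceral endoderm markers summed to 1722 and 1778 in libraries 2 and 3, 1366 to 2371 over all knockout libraries and 2081 to 3201 in wild type, with Afp, Ttr and Apoa1 under the filter. Trophoblast markers had no common direction. Their sum, in which Tfap2c weighs most, was 2945 to 4039 in knockout and 2486 to 2724 in wild type libraries, while Cdx2 stood at or below 72.4 in all 5 knockout libraries against 189 and 267 in wild type, and the list's median departure from wild type was -0.22 and -0.20 in knockout libraries 2 and 3. Elf5, Gata3, Tpbpa and Tead4 were under the filter. No marker on any of these lists had a signal of 0 in any library. The part of these cell types, of the 3′ to 5′ ratios and of the library pair in the member values was not tested.

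**Figure D4:**
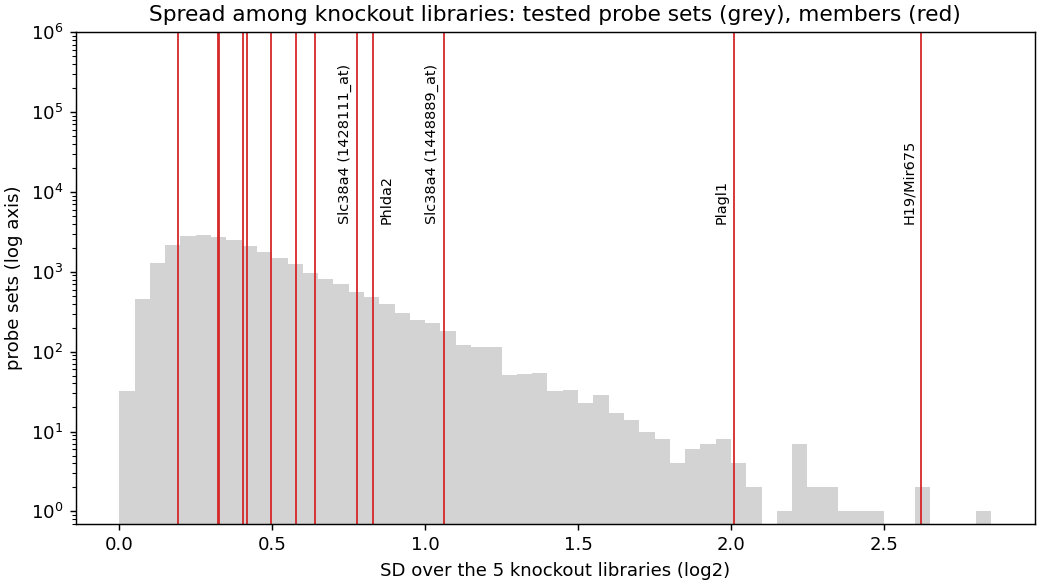
Histogram of the standard deviation over the 5 knockout libraries (log2, x axis) for the 27022 tested probe sets (grey, log count axis), with the 13 member probe sets as red lines. H19 at 2.62 and Plagl1 at 2.01 lie in the far tail, and 10 of the 13 lie above the median of 0.37.

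The genes nearest in pattern to the 3 members of largest range, H19, Nnat and Plagl1, were found by the root mean square distance between mean-centred log2 values over the 7 libraries. All genes share these arrays, on which knockout libraries 2 and 3 stand apart, so closeness is a description. Nearest to H19 were Tax1bp3, a PDZ domain protein gene, at a distance of 0.37, Calcoco2, an autophagy receptor gene, at 0.64, and Plagl1 itself at 0.75. The median distance of all 13120 genes from H19 was 2.20. The Tax1bp3 signal was 24.5 in knockout library 2, 34.3 in knockout library 3 and 665 to 1438 in the other 5 libraries. It was also nearest to Plagl1 (0.48), followed by Ube2cbp (0.68) and the Myc family gene Mycl (0.69). Nearest to Nnat were Pim2, a serine/threonine kinase gene (0.46), the planar polarity gene Prickle1 (0.51) and the myosin chaperone gene Unc45b (0.52). Pim2 had a signal of 7347 in wild type library 1 and of 368 to 1178 in the other libraries.

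Imprinted genes elsewhere in the genome, listed from general knowledge and without the Snhg14 region and the Dlk1 cluster, gave no call. Of 44 listed, 32 had a tested probe set, and with limma's test 0 passed (6 at an unadjusted p under 0.05). In 5 the knockout libraries all lay higher and in 3 all lower, and the median difference was 0.14. Of all 13120 tested genes, also read by the brightest probe set, 841 lay all higher and 976 all lower. Their median difference was -0.004, and 997 had an unadjusted limma p under 0.05. These values are the background for the next 2 lists too. Knockout libraries 2 and 3 held the 2 highest signals for 12 of the 32 and the 2 lowest for 9, where 26.9% and 20.9% of all tested probe sets did so. Grb10, an adaptor that restrains insulin and growth factor receptors, had signals of 1438 and 629 in wild type and of 1803, 4546, 4759, 3676 and 1913 in knockout libraries 1 to 5. All 5 knockout libraries were higher (difference 1.67, SE 0.48, limma adjusted p = 0.575). Slc22a18, a transporter gene beside Phlda2, was also higher in each, at 86.9 to 180.5 against 58.3 and 25.1. Its wild type signals and those of knockout libraries 1 and 5 (96.5 and 86.9) were under the array medians and cannot be told from background. Ins2 (-0.72) and Mcts2 (-0.63), a retrogene copy of Mcts1 whose probes may bind both, were lower in each. The Ins2 signals, 40.5 to 122.6 over all libraries, were near or under the array medians and cannot be told from background either. The bright Gnas (-0.94), Commd1 (-0.91), Gab1 (-0.27) and Cd81 (0.67) overlapped between the groups.

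Factors that keep imprints were measured for 16 of 16 listed genes. With limma's test 0 passed (1 at an unadjusted p under 0.05), the median difference was -0.16, and knockout libraries 2 and 3 held the 2 lowest signals for 8 of them and the 2 highest for 2, where the shares over all probe sets were 20.9% and 26.9%. The de novo DNA methyltransferase gene Dnmt3a had signals of 2399 and 1080 in wild type and 937, 475, 503, 868 and 744 in knockout libraries 1 to 5, all lower (difference -1.22, SE 0.40, limma adjusted p = 0.575). Uhrf1, which guides the maintenance methyltransferase, was lower in each too, at 3502 to 5520 against 7392 and 6079 (difference -0.57). Arid4a was higher in each (0.69). The groups overlapped for Trim28, the corepressor that ZFP57 recruits (-0.32), for Dnmt3b (-0.61), for Hells (0.19) and for Tet1, a 5-methylcytosine dioxygenase gene (0.70).

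Genes of IGF receptors, of binding proteins and related genes were tested for 14 of 15 listed. With limma's test 0 passed (2 at an unadjusted p under 0.05), and the median difference was -0.19. For 7 of the 14 the 2 highest signals, and for 3 the 2 lowest, were those of knockout libraries 2 and 3. The shares over all tested probe sets were 26.9% and 20.9%. The insulin receptor gene Insr had signals of 296 and 289 in wild type and of 410, 1511, 1618, 760 and 362 in knockout libraries 1 to 5, all higher (difference 1.35, SE 0.58, limma adjusted p = 0.575). Igf2r, the imprinted receptor that clears IGF2 from the cell surface, stood at 686 and 778 in wild type. Knockout libraries 2 and 3 had 2637 and 2825, and libraries 1, 4 and 5 had 913, 1001 and 827, all of them higher (difference 0.94); it is also among the imprinted genes counted above. Igfbp4, a secreted IGF-binding protein gene, was lower in each knockout library, at 449 to 1607 against 4466 and 1790 (difference -1.49). The bright Igfbp2 (-0.04), Igf2bp1 (-0.42) and Igf2bp3 (-0.24) overlapped between the groups.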

How the data were processed

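Gene expression was measured in 2 wild type and 5 knockout libraries of D3 cells. The deposited values are intensities, 1 linear signal per probe set and array; the submitters' processing notes name MAS5 as the tool, without a version, and their mean without the lowest and highest 2% was 500.0 on every array. The table gave no detection calls. Array medians ran from 92.6 to 124.9, so arrays were left as scaled.

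The analysis used log2(signal + 20.2), the added constant being the table's 20th percentile. After 64 control probe sets were set aside, the 27022 with a mean above the 40th percentile were tested with limma 3.58.1 in R 4.3.3 (trend, two-sided, adjusted p under 0.05 over all of them, no covariates). The platform annotation gave 34958 probe sets 1 symbol, 932 several and 9211 none; a probe set with several was used only for H19, with both symbols stated. For the other genes of a list the brightest tested probe set with 1 symbol stood for the gene, with symbols, chromosomes and order from RefSeq (GRCm38.p6). The array files name no build.

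Every member was named. From each list the genes past the threshold, the 4 brightest, and up to 2 per direction with the largest difference among genes whose groups did not overlap were named. Members, lists and alternatives were chosen with earlier results of these data known. On simulated data for 27022 probe sets, with independent noise, log2 changes of 1, 2, 3 and 4 were called in 6%, 60%, 94% and 90% of cases, with 4 false calls. In the real data knockout libraries 2 and 3 moved together, so these rates hold for the simulated setting only. Precision is limited by the number of arrays. Alternatives covered normalization, filter, pseudocount, variance model, array weights, the probe set per gene, a replicate block and left-out libraries. Figures were drawn with matplotlib 3.10.9.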

Additional observations from a re-analysis of the deposited data

How the results depend on the processing

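No member probe set passed the threshold under any of the 19 alternatives, and 231 of 241 member results kept their direction; 10 of the 13 probe sets kept it under every alternative that tested them. The 10 reversals concern Igf2, Phlda2 and the second Slc38a4 probe set. Without knockout libraries 2 and 3, or with them as a batch term, the differences were -0.14 for Igf2, -0.12 for Phlda2 and -0.27 for Slc38a4. Igf2 was also -0.019 with median centring. With 1 library left out in turn, Igf2 ran from -0.11 (without wild type library 1) to 0.31, turning negative without knockout library 2 as well (-0.0056), and Phlda2 from -0.11 (without wild type library 2) to 0.97. The median difference of all tested probe sets was 0.07 as deposited, -0.03 after quantile normalization and -0.05 after median centring. Centring moves every member alike, and quantile normalization does not: Mest went from -1.29 to -1.15 and Cdkn1c from 0.53 to 0.36.

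The number of member probe sets whose groups did not overlap, 3 with all libraries, ran from 3 to 6 with 1 library left out; it was 6 without either wild type library and 5 without knockout library 1 or 4. The count of all probe sets called, 8, was 2 with 1 probe set per gene (a setting that leaves out H19), 4 with the filter at the 60th percentile, 5 with no filter and 5 without knockout libraries 2 and 3. It ran from 0 to 7 with 1 library left out, and was 0 without either wild type library, 4 without knockout library 1 and 5 without knockout library 4 or 5. With the replicate block the count of calls was 15, 0 of them members. The labels number replicates in both groups, but deviations from the group means correlated at only 0.11 for number 1 and -0.01 for number 2, so the numbers were not taken to pair samples. At a given probe set, leaving out a library can only keep or add non-overlap, so the higher counts of non-overlapping member probe sets follow from the rule. The cause of the changes in the count of calls was not tested. With 2 wild type arrays and no detection calls, dim signals such as those of Peg10 and of H19, Plagl1 and Nnat in knockout libraries 2 and 3 cannot be told from background.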

Other observations

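On distal chromosome 7, where H19, Igf2, Cdkn1c and Phlda2 lie, 13 of 14 listed imprinted genes from H19 to Osbpl5 had a tested probe set. Of these, 0 passed limma's threshold. Knockout libraries 2 and 3 held the 2 highest signals for 4 genes and the 2 lowest for 4, where 26.9% and 20.9% of all tested probe sets did so. Ascl2, a transcription factor gene of the trophoblast, had its lowest signals, 31.4 and 35.4, in knockout libraries 2 and 3. Libraries 1, 4 and 5 had 231, 115 and 285, and the wild type pair had 68.0 and 107.9. Apart from those of knockout libraries 1 and 5, these Ascl2 signals were near or under the array medians and cannot be told from background. Tspan32, the next listed gene, ran from 272 to 416 over the 7 libraries. Cd81, a tetraspanin gene listed after it, stood at 10504 and 11554 in knockout libraries 2 and 3 and at 4053 to 5471 in the other 5. Nap1l4, a histone chaperone gene next to Phlda2, stood at 1401 and 1570 there and at 2409 to 2785 in the others. Kcnq1ot1, the long non-coding RNA of the domain that holds Cdkn1c and Phlda2, ran from 616 to 863 over all 7 libraries, with 681 and 803 in wild type. Neighbouring genes of this region thus had unlike patterns across the libraries, and Ascl2, Tspan32, Nap1l4 and Kcnq1ot1 were chosen after their values were seen.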
